A study of Rattus norvegicus with 6 samples.

Results

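The genes described here encode the proteins of the cytosolic ribosome, and were chosen as all array probes whose RefSeq transcript belongs to a rat gene with an Rpl or Rps symbol, without the S6 kinases, pseudogenes and genes named only as ribosomal protein-like. This gave 143 probes for 82 genes, out of 30367 probes on the array and 15443 genes named by them. Arrays were read for 3 samples of rats with intracerebral hemorrhage (ICH), in which blood leaks into the brain, and for 3 samples of rats given a sham operation, with 1 array per sample. For ICH the labels give peripheral brain tissue, which by the title of the series lies near the hematoma, while the sham tissue is named brain tissue only, so that the site of dissection and the hemorrhage cannot be told apart. Every sample carries the label day 1 with no starting point given, and the design text calls the ICH replicates transfected, which no other label does. The strain of the rats, their age in any other sense, and the way the hemorrhage was made are not given in the sources used here.

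A ribosome joins a small subunit, which reads the messenger RNA, to a large subunit, which links the amino acids, and each holds a fixed set of ribosomal proteins on a core of ribosomal RNA. The transcripts of these proteins are among the most abundant in brain tissue. Most of them begin with a terminal oligopyrimidine (TOP) motif, a C followed by a run of C and T bases (C and U in the RNA), through which the kinase mTOR and the protein Larp1 control how strongly they are translated. Genes for ribosomal proteins have left many near-identical processed copies in mammalian genomes, so a probe may also read transcripts of a copy.

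Levels are given as the deposited log2 signal, on which 0 is the 75th percentile of the array. Differences are ICH minus sham, so that a negative value means lower in ICH. They were tested with limma across 24650 probes that stood well above background on at least 3 of the 6 arrays, with Benjamini-Hochberg adjustment over all of them. All 143 ribosomal protein probes passed this filter, and 141 of them stood well above background on all 6 arrays. The exceptions were 1 probe of Rpl36a and the probe of the gene copy Rpl27l2. Between 81.8% and 85.4% of the spots of an array stood well above background, 0 spots were saturated, and the arrays shared 1 slide and 1 scan. The neuron markers set against the brain label, 11 probes of 8 genes, stood well above background on all 6 arrays. Replicates are described as biological in the labels, and the number of arrays limits the precision.

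The starts of the genes the results turn on are shown first, because starts in this family are known for runs of C and T. Each window, from RefSeq on build GRCr8, reads 5′ to 3′ along the transcript, with 15 bases before and 15 from the annotated start, and the capitals mark the longest run of C and T. The first 5 belong to genes with large negative differences, and the last 4 are 2 genes, each followed by a gene copy named after it.
Rps23 (chr2:23814502-23814531, plus strand): tgggtccttcctgCCTCTCTTCTCTCTTTC
Rps2 (chr10:14251833-14251862, plus strand): CCTCTTCTTTTTCTTCgggaaaacacgtga
Rpsa (chr8:128728864-128728893, plus strand): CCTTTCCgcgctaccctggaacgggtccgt
Rpl9 (chr14:43247575-43247604, plus strand): gacgaaggacgTTCTCTCTTTgccccatct
Rplp0 (chr12:46718376-46718405, minus strand): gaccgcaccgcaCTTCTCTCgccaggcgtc
Rpl39 (chrX:121195882-121195911, minus strand): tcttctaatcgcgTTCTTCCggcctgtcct
Rpl39l1 (chr10:5966607-5966636, minus strand): actgccaggccgtcccgctaTCCTggtgtg
Rps12 (chr1:23500060-23500089, plus strand): gcacagaagcccagcagagcgCTTaaatac
Rps12l4 (chr7:25007015-25007044, minus strand): gcgaaggcacagaatgCTggcgcagggtgc
The run was 17 bases long in Rps23 and 16 in Rps2, but 8 in Rplp0, 7 in Rpsa and 3 in Rps12, whose 2 probes had differences of -0.75 and -0.62 with the groups apart. It was 7 bases long in Rpl39, 4 in Rpl39l1 and 2 in Rps12l4. Of the windows shown, only those of Rpl9, Rplp0 and Rpl39 have a C at the start followed by 4 bases of C or T. Windows could be read for 67 of the 82 genes, with 68 starts in all because Rps27a has 2. The longest run of C and T had at least 7 bases in 47 of the 68 windows (69.1%), against 17.9% of the windows of the same length at all 33469 RefSeq starts, and its median length was 9 bases against 4. A C at the start followed by 4 bases of C or T was found in 23 of the 68 windows (33.8%), against 2.63% of all starts. The letters CTTTC, searched within the same windows, stood on the transcript strand in 27 of them (39.7%) and on either strand in 28 (41.2%), against 3.59% and 7.32% of all starts. These counts overlap, since a long run of C and T can hold both. All these counts depend on the annotated starts, which were taken as given. In Rps2 the run ends at the annotated start, and in Rpsa it ends before that start.

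Relative to the 75th percentile of each array the ribosomal protein genes were lower in ICH tissue nearly throughout, whereas centring on 7 spike-in probes gave them a median difference of 0.03, with 80 probes positive and 63 negative. Spike-in centring adds 0.44 to the difference of every probe, so that those between 0 and -0.44 turn positive, and the median of all probes was then 0.40. Relative to the median of all probes the members stood at -0.37 under both scalings. None of the 143 passed the adjusted threshold under either, while of all probes tested 0 passed it on the 75th-percentile scale and 44 under spike-in centring. On the 75th-percentile scale, used from here on, the values were as follows. Of the 143 probes, 137 had a negative difference and 6 a positive one. The median difference was -0.41, a level 1.33-fold higher in sham tissue, against a median of -0.04 over all probes tested. The lower and upper quartiles were -0.59 and -0.23, and the extremes were -0.98 for Rps23 and 0.75 for Rpl39l1. A difference of -0.5 or beyond was found for 48 probes, and of -1 or beyond for 0.

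Of the 143 probes, 0 were called at an adjusted p under 0.05 by limma, where 0% of all probes were called, and the lowest adjusted p was 0.289. An unadjusted p under 0.05 was found for 74 probes lower in ICH, where 8.82% of all probes tested had one in that direction. It was found for 0 probes higher in ICH, where the share of all probes was 6.18%. All 3 ICH values lay below all 3 sham values for 103 of the 143 probes (72.0%), against 16.7% of all probes tested. The opposite, all 3 ICH values above all 3 sham values, occurred for 0 probes, against 10.8% of all probes. In bulk tissue, fewer cells of a type and less RNA per cell cannot be told apart.

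**Figure D1:**
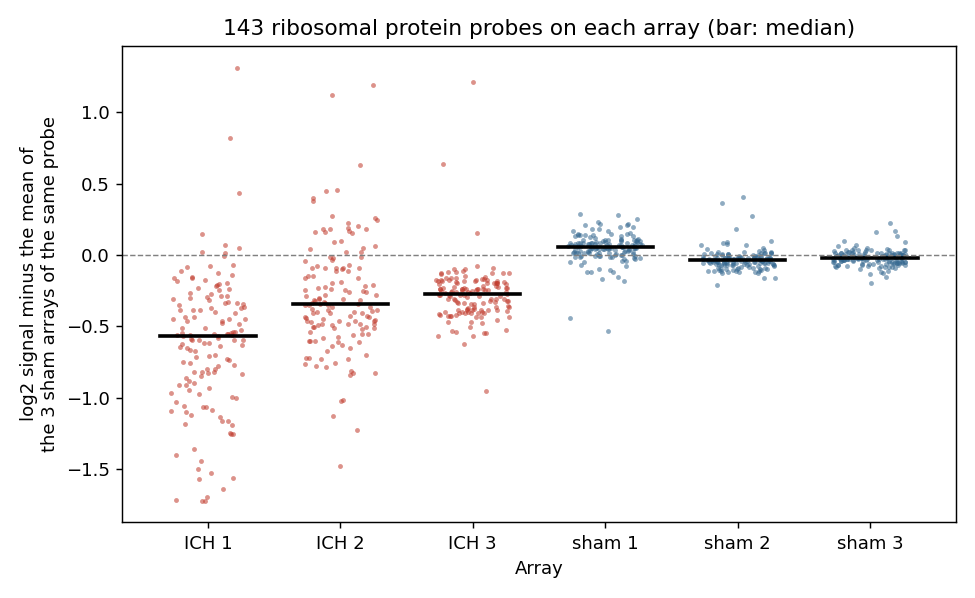
Each point is 1 of the 143 ribosomal protein probes, drawn as its log2 signal minus the mean of the 3 sham arrays for that probe (vertical axis), on each of the 6 arrays (horizontal axis), with a bar at the median. The medians were -0.57, -0.35 and -0.27 on ICH 1, 2 and 3, against 0.05, -0.04 and -0.02 on sham 1, 2 and 3.

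The 3 ICH arrays did not share 1 level. Relative to the sham mean of each probe, the median over the 143 probes was -0.57 on ICH 1, -0.35 on ICH 2 and -0.27 on ICH 3. On the sham arrays it was 0.05, -0.04 and -0.02. The plot of all members by array shows a wide spread on ICH 1 and ICH 2, a narrow band on ICH 3 and narrower ones on the sham arrays. ICH 1 held the lowest of the 3 ICH values for 99 probes, ICH 2 for 32 and ICH 3 for 12. A level at least 1 below the sham mean was read from 29 probes on ICH 1, 5 on ICH 2 and 0 on ICH 3. ICH 3, the array with the smallest shift, read below all 3 sham values for 137 probes, against 133 on ICH 1 and 109 on ICH 2. How many of all probes tested lay below sham on a single ICH array was not counted. ICH 2 read above all 3 sham values for 22 probes, ICH 1 for 4 and ICH 3 for 2. The median SD of a probe was 0.252 over the ICH arrays and 0.0667 over the sham arrays, against 0.310 and 0.142 for all probes tested. Without ICH 1 the median difference was -0.31. The count of 74 probes with an unadjusted p under 0.05 was 48 without ICH 1, and 19, 34 and 25 without sham 1, 2 and 3. The 3 sham arrays and ICH 1 lay in one row of the slide and ICH 2 and 3 in the other. Within the row that holds both groups, where ICH 1 is the only ICH array, the median difference was -0.57.

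**Figure D2:**
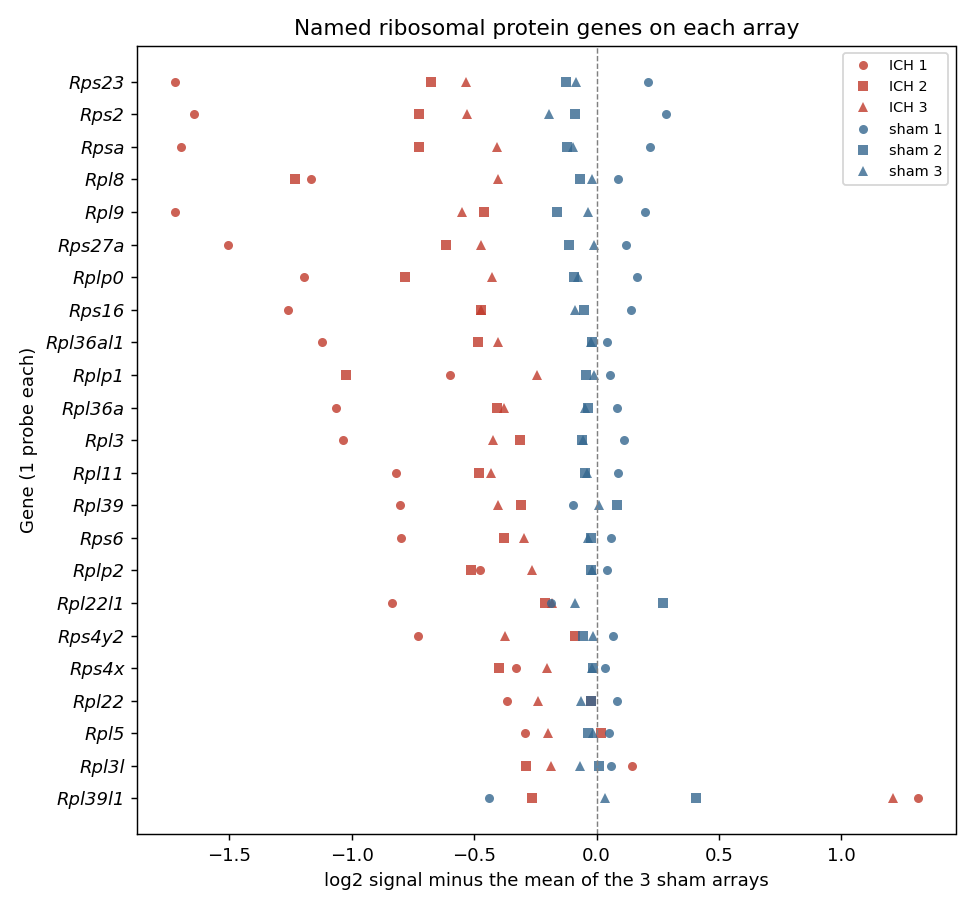
Each row is a named gene, shown by 1 probe, with the log2 signal on each array minus the mean of the 3 sham arrays on the horizontal axis, ICH arrays in red and sham arrays in blue, and 1 marker shape per replicate number. The rows run from a difference of -0.98 for Rps23 at the top to 0.75 for Rpl39l1 at the bottom, and ICH 1 lies farthest left in most rows.

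The small subunit was covered by 52 probes of 31 genes. Their median difference was -0.44, with 50 probes negative, 33 lower with an unadjusted p under 0.05 and 38 with all ICH values below all sham values. Rps23, a protein of the decoding centre, where codon and anticodon are matched, had the most negative difference of all members. Its probe read -0.52, 0.53 and 0.67 on ICH 1, 2 and 3, against 1.41, 1.07 and 1.12 on sham 1, 2 and 3. All ICH values lay below all sham values, with the lowest on ICH 1. The difference was -0.98 ± 0.33 (SE, n = 3 each), with a 95% interval from -1.79 to -0.16 and a limma adjusted p of 0.296. The other probes of Rps23 gave -0.96 and -0.65, also with the groups apart.

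Rps2, which lies at the channel where messenger RNA enters the small subunit, read -1.04, -0.12 and 0.07 on the ICH arrays, against 0.88, 0.51 and 0.41 on the sham arrays. The groups did not overlap, and the difference was -0.97 ± 0.32 (SE, n = 3 each, limma adjusted p = 0.293). Its other 3 probes gave -0.84, -0.41 and -0.31, and all 4 had every ICH value below every sham value. Rpsa, a small-subunit protein also known as the laminin receptor, read -0.46, 0.51 and 0.83 in ICH tissue, against 1.45, 1.11 and 1.14 in sham tissue, a difference of -0.94 ± 0.34 (SE, n = 3 each, limma adjusted p = 0.310). The groups were apart here too, but not for the other probe of Rpsa. That probe read 2.59, 2.73 and 2.50 in ICH tissue, against 2.69, 2.65 and 2.71 in sham tissue, with ICH 2 above every sham array and a difference of -0.07.

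Rps27a, whose protein is made as a fusion with ubiquitin, read 0.15, 1.03 and 1.18 on the ICH arrays, against 1.77, 1.54 and 1.64 on the sham arrays. The difference was -0.86 ± 0.29 (SE, n = 3 each, limma adjusted p = 0.294) with the groups apart, and the other probe gave -0.56, also apart. Rps6, the substrate for which the S6 kinases are named, read 1.99, 2.42 and 2.50 in ICH tissue, against 2.85, 2.77 and 2.76 in sham tissue. All ICH values were below all sham values, with a difference of -0.49 ± 0.17 (SE, n = 3 each, limma adjusted p = 0.298), and the other probe of Rps6 gave -0.43, also apart. Rps4x and Rps4y2, which encode forms of the same small-subunit protein, differed by -0.31 and -0.40, both with the groups apart. A further probe of Rps4y2 gave -0.07 with overlapping groups.

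The large subunit was covered by 91 probes of 51 genes. The median difference was -0.39, with 87 probes negative, 41 lower with an unadjusted p under 0.05 and 65 with the groups apart. Whether the medians of the 2 subunits differ was not tested. Rpl8, a protein close to the centre where peptide bonds form, read 1.34, 1.28 and 2.11 on the ICH arrays, against 2.59, 2.44 and 2.49 on the sham arrays. ICH 1 and ICH 2 were both low and ICH 3 nearer to sham, with no overlap. The difference was -0.93 ± 0.25 (SE, n = 3 each, limma adjusted p = 0.289), and the other probe of Rpl8 gave -0.34, again apart. Rpl9, a further large-subunit protein, read -0.71, 0.55 and 0.46 in ICH tissue, against 1.21, 0.85 and 0.97 in sham tissue, a difference of -0.91 ± 0.36 (SE, n = 3 each, limma adjusted p = 0.323). Its groups were apart, and ICH 1 lay more than 1 log2 unit below the other ICH arrays. In the other probe of Rpl9, with a difference of -0.60, the groups overlapped, as ICH 2 read 1.90 and the sham arrays 1.71, 1.43 and 1.44.

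The stalk of the large subunit recruits the elongation factors, and its proteins Rplp0, Rplp1 and Rplp2 were measured by 4 probes, all lower in ICH with the groups apart, although Rplp2 turns positive under spike-in centring. Their median difference was -0.56, and all 4 had an unadjusted p under 0.05. Rplp0, the base of the stalk, read 1.48, 1.89 and 2.25 on ICH 1, 2 and 3, against 2.84, 2.59 and 2.60 on sham 1, 2 and 3, a difference of -0.80 ± 0.22 (SE, n = 3 each, limma adjusted p = 0.289), and its other probe gave -0.49. Rplp1 read 2.08, 1.66 and 2.43 in ICH tissue, against 2.73, 2.63 and 2.67 in sham tissue, a difference of -0.62. Rplp2 read 2.54, 2.51 and 2.75 in ICH tissue, against 3.06, 3.00 and 3.00 in sham tissue, a difference of -0.42. In Rplp1 and Rplp2 the lowest array was ICH 2, not ICH 1.

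Rpl5 and Rpl11 bind 5S ribosomal RNA and, when not built into a ribosome, are known to bind the p53 regulator Mdm2. Rpl11 read 2.23, 2.57 and 2.62 on the ICH arrays, against 3.14, 3.00 and 3.01 on the sham arrays, with no overlap and a difference of -0.58 ± 0.15 (SE, n = 3 each, limma adjusted p = 0.289). Rpl5 read 2.54, 2.85 and 2.63 in ICH tissue, against 2.88, 2.80 and 2.82 in sham tissue, a difference of -0.16 ± 0.14 (SE, n = 3 each, limma adjusted p = 0.578). For Rpl5 the groups overlapped, with ICH 2 inside the sham range. The difference between these 2 genes was not tested.

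Paralogs and gene copies varied among themselves, and whether they differ from the other members was not tested. Besides the paralogs Rpl22l1 and Rps4y2, the set holds 9 probes of 7 genes that were classed as copies by their symbols, Rpl3l among them. Their median difference was -0.10, against -0.41 for the other 134 probes. Of these 9, 6 were negative, 1 had an unadjusted p under 0.05 and 2, Rpl36al1 (-0.67) and Rpl27l2 (-0.62), had the groups apart. The probe of Rpl27l2 stood well above background on only 2 of the 3 ICH arrays. Relative to the sham mean it lay at -1.48 on ICH 2, against -0.22 on ICH 1 and -0.16 on ICH 3. Rpl39l1, named after the exit tunnel protein gene Rpl39, read -4.84, -6.42 and -4.95 on the ICH arrays, against -6.60, -5.75 and -6.13 on the sham arrays. ICH 1 and 3 were above every sham array and ICH 2 was not, so the groups overlapped, with a difference of 0.75 ± 0.47 (SE, n = 3 each, limma adjusted p = 0.461). Rpl39 itself read 0.72, 1.21 and 1.12 in ICH tissue, against 1.43, 1.61 and 1.53 in sham tissue, with the groups apart and a difference of -0.51, while its other probe gave -0.28 with overlapping groups.

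Rpl3l, known in other mammals as the form of Rpl3 in heart and skeletal muscle, read -4.68, -5.11 and -5.01 on the ICH arrays, against -4.76, -4.81 and -4.89 on the sham arrays. The groups overlapped and the difference was -0.11, whereas Rpl3 gave -0.59 with the groups apart. Rpl36al1 and Rpl36a, which encode near-identical proteins, gave -0.67 and -0.62, both with the groups apart. The other 3 probes of Rpl36a gave -0.41 and -0.34 with the groups apart and -0.33 with overlap. Rpl22l1 and its parent Rpl22 gave -0.41 and -0.21, both with overlap. The other probe of each lay near 0, at -0.0024 for Rpl22l1 and -0.025 for Rpl22.

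The 6 probes with a positive difference were named after their values were seen. They belong to Rpl39l1 (0.75), Rps12l4 (0.33), Rpl28 (0.18), Rps16 (0.14), Rpl27 (0.06) and Rpl37l1 (0.03). In all 6 the groups overlapped. Rpl39l1 and Rps12l4, each with 1 probe, were the only 2 genes of the 82 with a positive mean over their probes. Both were dim, with Rpl39l1 between -6.60 and -4.84 and Rps12l4 between -6.50 and -4.77. The lowest values well above background were -7.53 on ICH 1 to -7.01 on ICH 3. With normexp background correction the difference of Rpl39l1 was 0.38.

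**Figure D3:**
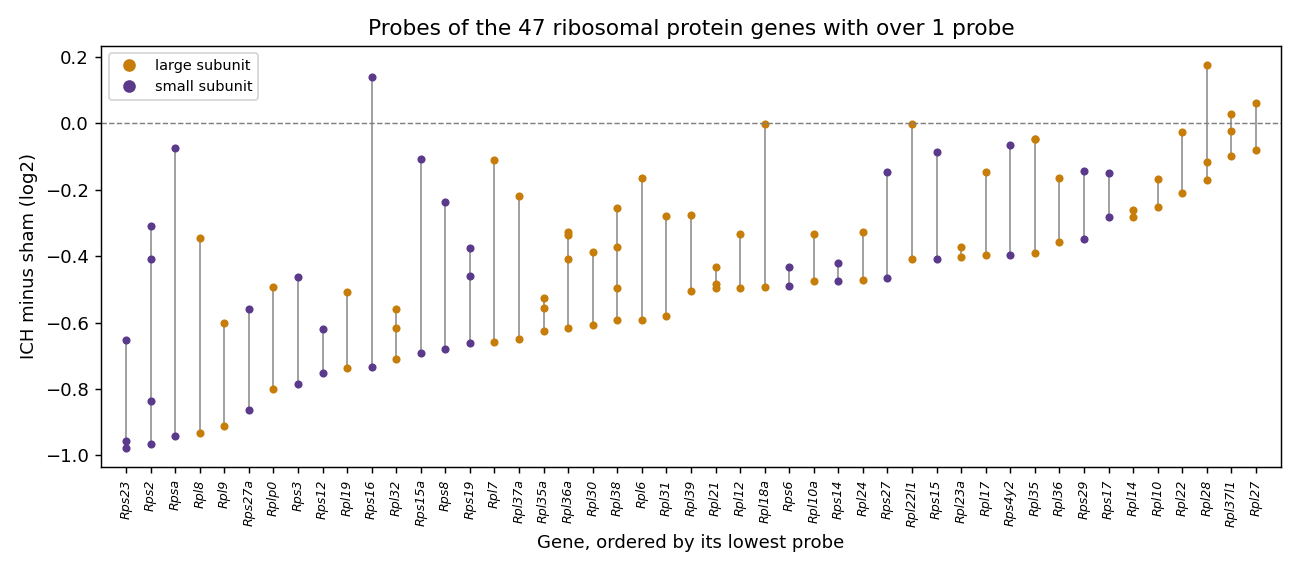
Each vertical line joins the probes of 1 of the 47 ribosomal protein genes measured by more than 1 probe, with the difference ICH minus sham in log2 on the vertical axis and genes ordered by their lowest probe on the horizontal axis. On the 75th-percentile scale every probe lies below 0 in 43 of the 47 genes, and the longest lines, 0.87 each, are those of Rps16 and Rpsa.

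Probes of a gene mostly pointed the same way but differed in size. Of the 47 genes with more than 1 probe, 43 had only negative differences, and 23 had all ICH values below all sham values in every probe. The gap between the most and least negative probe of a gene had a median of 0.29. It was largest, at 0.87, in Rps16 and Rpsa. The 2 probes of Rps16, a small-subunit protein, gave -0.73 and 0.14. The first read 1.04, 1.83 and 1.83 in ICH tissue, against 2.44, 2.25 and 2.21 in sham tissue, and the second 0.82, 0.85 and 1.59 in ICH tissue, against 1.00, 0.86 and 0.98 in sham tissue. The groups were apart in the first and overlapped in the second. Of the 35 genes with a single probe, 33 had a negative difference.

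**Figure D4:**
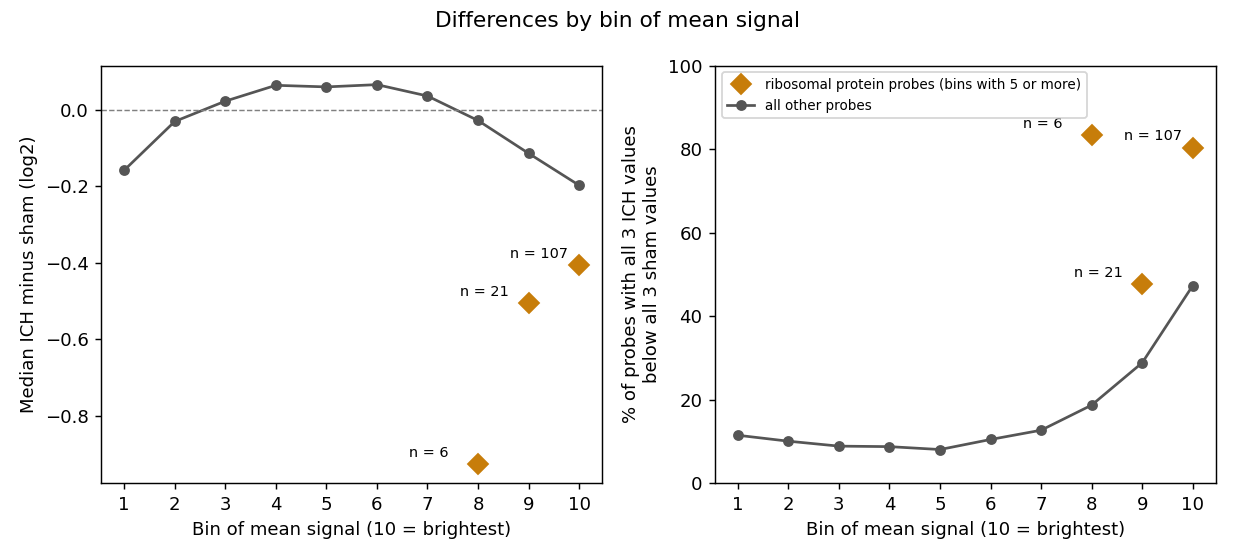
Probes were split by mean signal into 10 bins of equal size (horizontal axis). The left panel shows the median difference ICH minus sham in log2 and the right panel the percentage of probes with all 3 ICH values below all 3 sham values, for ribosomal protein probes (diamonds, bins with 5 or more) and all other probes (line). In the brightest bin the 107 ribosomal protein probes had a median of -0.41 and the other probes of -0.20.

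The median difference varied with signal across the array, though not in 1 direction, and most members are bright. Among the other probes it was -0.16 in the dimmest bin, at most 0.07 in the middle bins and -0.20 in the brightest. Of the 143 probes, 107 lay in the brightest of 10 equal bins of all probes tested, where the other 2358 probes had a median difference of -0.20 and 84.7% of them were negative. The 107 members there had a median of -0.41, and all 107 were negative. Groups were apart, with ICH below sham, for 86 of these members (80.4%), against 47.3% of the other probes of that bin. In the next bin, 21 members had a median of -0.51 and the other probes of -0.11. Among the members themselves, the difference and the mean signal had a Pearson r of -0.24 and a Spearman rho of 0.09, over 143 probes that share the 6 arrays. The part that signal has in the result was not tested. With quantile normalization, which gives all arrays 1 distribution of signal, the median of the members was -0.20, with 31 probes positive and 27 lower at an unadjusted p under 0.05.

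The differences were also set beside the start sequences, as a description. The 23 genes with a C and 4 further C or T bases at the start had a median of -0.40 over genes, and the 44 with another start had -0.43. For the 27 genes with CTTTC on the transcript strand the median was -0.47, against -0.40 for the 40 without. Rpl39l1 and Rps12l4 hold neither in their windows, which says only that these letters are not there.

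**Figure D5:**
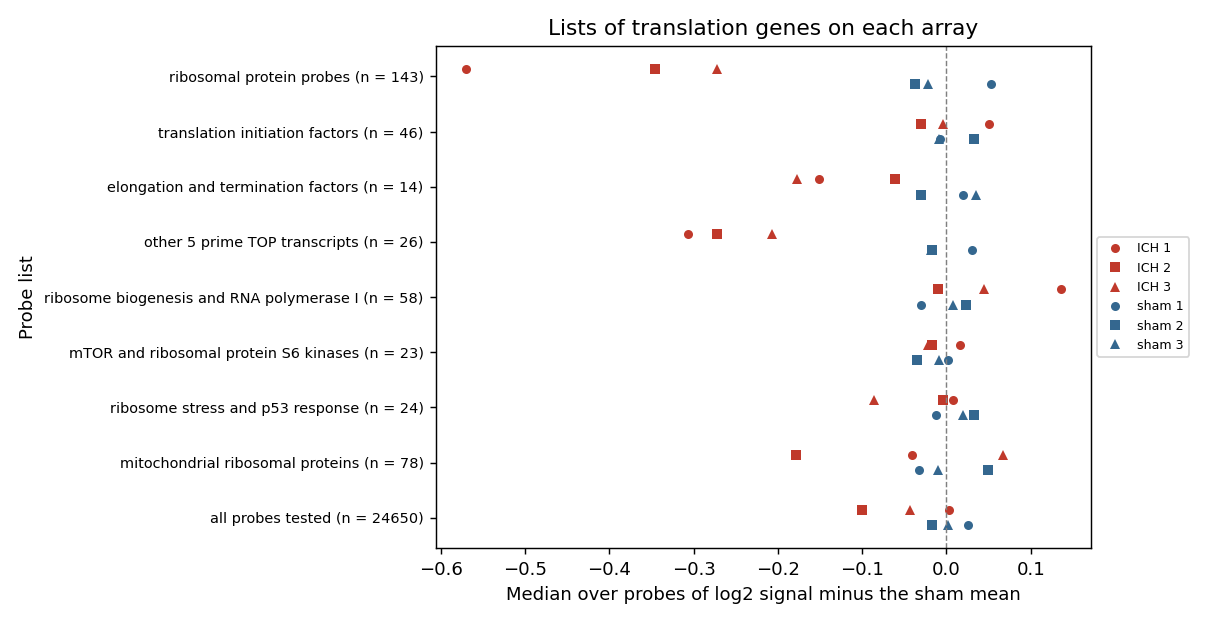
For each list of translation genes (rows, with the number of probes) the points give the median over its probes of the log2 signal minus the sham mean of each probe (horizontal axis), ICH arrays in red above and sham arrays in blue below. Among the lists drawn here, the ribosomal protein probes lie farthest left on all 3 ICH arrays, followed on each by the other TOP transcripts.

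Other genes of the translation machinery were read from lists, in which 0 probes were called, where 0% of all probes were. At an unadjusted limma p under 0.05, 8.82% of all probes tested were lower and 6.18% higher in ICH. These shares belong beside the counts of every list below. Non-ribosomal transcripts known for a TOP motif (26 probes of 18 genes) had a median difference of -0.22, with 18 probes negative. At an unadjusted p under 0.05, 8 were lower and 0 higher. ICH lay below sham throughout for 13 of the 26 (50%), against 16.7% of all probes tested. For the other probes of the brightest bin this share was 47.3% and the median difference -0.20. The median of the TOP list was 0.22 under spike-in centring and -0.02 with quantile normalization. Fau, which encodes a ubiquitin-like protein fused to the small-subunit protein Rps30, read 1.11, 1.77 and 1.94 on the ICH arrays, against 2.49, 2.30 and 2.31 on the sham arrays. All ICH values were below all sham values, with a difference of -0.76 ± 0.24 (SE, n = 3 each, limma adjusted p = 0.289), and its other probes gave -0.76 and -0.62. Eif3h, a subunit of an initiation factor, had -0.63 with 1 probe and 0.02 with another.

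Translation initiation factors (46 probes of 35 genes) had a median of 0.00, with 4 probes lower and 2 higher at an unadjusted p under 0.05. The largest difference among them was 1.06 for Eif1ax, which helps the small subunit scan for a start codon, with all ICH values above all sham values, and its other probe gave 0.19, also apart. Elongation and termination factors (14 probes of 12 genes) had a median of -0.12, with 2 lower and 1 higher. Eef1a1, which brings transfer RNA to the ribosome, read 2.72, 2.64 and 2.90 in ICH tissue, against 3.23, 3.13 and 3.12 in sham tissue, a difference of -0.41 with the groups apart. Eef1b2, part of the factor that reloads Eef1a1 with GTP, had -0.54, also apart. Eef1a1, Eef1b2 and Eif3h stand on the TOP list as well.

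Genes of ribosome assembly and RNA polymerase I (58 probes of 48 genes) had a median of 0.08, with 2 probes lower and 7 higher at an unadjusted p under 0.05. Polr1e, a subunit of RNA polymerase I, which makes ribosomal RNA, read -3.37, -3.02 and -3.66 in ICH tissue, against -4.38, -3.98 and -3.96 in sham tissue, a difference of 0.76 with the groups apart. Its other probe gave 0.19 with overlapping groups. Dkc1, the pseudouridine synthase of ribosomal RNA, had -0.65, also apart. The list of mTOR and S6 kinase genes (23 probes of 19 genes) had a median of 0.00, with 1 lower and 4 higher. Its largest differences were 1.30 for Myc, a transcription factor that drives ribosome production, with the groups overlapping, and -0.48 for Mlst8, an mTOR subunit, with the groups apart.

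The list of ribosome stress and p53 genes (24 probes of 18 genes) had a median of -0.03, with 1 lower and 2 higher at an unadjusted p under 0.05. Trib3, a stress-induced pseudokinase, had 0.87 with overlapping groups, and Zmat3, a p53 target, -0.48 with the groups apart in 1 probe and -0.27 with overlap in another. Proteins of the mitochondrial ribosome (78 probes of 67 genes) had a median of -0.02, with 2 lower and 3 higher. The largest differences there were -0.75 for Mrpl10 and -0.63 for Mrps26, both with the groups apart, but the other probe of Mrpl10 gave 0.29 with overlap. The differences between these lists and the ribosomal protein genes were not tested.

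The markers of some other cell types had different sums in the groups as well. Summed over 11 probes of 7 genes, the microglia markers had a signal of 24.4 to 26.3 on the ICH arrays, against 31.5 to 32.1 on the sham arrays, in units of the 75th percentile of an array. Endothelial markers (6 probes of 6 genes) summed to 6.74 to 7.69 on the ICH arrays, against 9.71 to 10.2 on the sham arrays. Astrocyte markers (14 probes of 8 genes, 10 of them negative) summed to 43.7 to 46.2 on the ICH arrays, against 51.3 to 54.5 on the sham arrays. Of these, 6 microglia (54.55%), 4 endothelial (66.67%) and 5 astrocyte probes (35.71%) had every ICH value below every sham value. The same held for 4 of the 11 neuron probes (36.36%), for 16.7% of all probes tested and for 47.3% of the other probes in the brightest bin. A further 3 neuron probes had every ICH value above every sham value, as did 10.8% of all probes tested. Oligodendrocyte markers (11 probes of 7 genes, 10 of them negative) summed to 54.9, 29.3 and 48.7 on ICH 1, 2 and 3, against 48.0 to 56.7 on the sham arrays, so that ICH 2 alone lay below sham. The sums of the neuron, lymphocyte and proliferation markers overlapped between the groups. The markers of infiltrating myeloid cells (13 probes of 12 genes) summed to 14.7 on ICH 1, 21.0 on ICH 2 and 4.39 on ICH 3, against 5.22 to 6.84 on the sham arrays, and 12 of the 13 probes had a positive difference. Erythroid markers (9 probes of 6 genes) summed to 14.3 to 24.0 on the ICH arrays, against 6.94 to 14.6 on the sham arrays, with 8 of 9 probes positive. The median differences of the microglia, endothelial, astrocyte and oligodendrocyte lists were -0.37, -0.50, -0.29 and -0.24, against -0.41 for the ribosomal protein probes. Under spike-in centring the medians of these 4 lists were 0.07, -0.05, 0.15 and 0.20. With quantile normalization they were -0.18, -0.51, -0.15 and -0.09. On ICH 3 the myeloid sum lay below that of every sham array. There the median of the ribosomal protein probes was -0.27, and 137 of the 143 lay below all 3 sham values. On ICH 1 and ICH 2, with higher myeloid sums, the medians were -0.57 and -0.35, with 133 and 109 such probes. The part of these cells in the levels of the ribosomal protein transcripts was not tested.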

How the data were processed

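Per the labels' protocols, TRIzol was used to extract total RNA of 3 ICH and 3 sham samples, and Cy3 to label it after linear amplification. Per the file headers, spot intensity was read and background-subtracted with Agilent Feature Extraction 11.5.1.1; the submitters' processing notes name version 10.7. The deposited log2 values equal, within 0.001 for 98.3% to 99.2% of probes, the log2 processed intensity averaged over the spots of a probe minus the 75th percentile of the array, as worked out from the values. Taken over the spots of an array instead of its probes, the 75th percentile of the processed intensity ranged from 5726 to 6676. Of the pairs of arrays, 0 were identical.

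Probes were named through the accessions in RefSeq's GRCr8 gene table: 18355 of 30367 probes had 1 symbol, 0 several and 12012 none. The deposited values entered limma 3.58.1 under R 4.3.3, through lmFit and then eBayes without covariates, over 24650 probes with at least 0.5 of their spots well above background on at least 3 arrays. The test was checked on simulated data. Lists were described by counts and medians only. Summaries used Python 3.11.15 (pandas 2.3.3, numpy 2.4.6); matplotlib 3.10.9 drew the figures.

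The members and lists were chosen with earlier results of these data known. Genes were named if called, if among the 5 with the largest differences in each direction with the groups apart, by role (stalk, 5S particle, Rps6, Rpsa, Rps27a, paralogs with their parents), or for the 2 largest gaps between probes, and for other lists the 2 largest differences. Each gene named by role is given by its probe with the largest difference. Alternatives were the scanner signals, normexp (offset 50), quantile normalization, centring on the median or on 7 spike-in probes, other filters, 1 value per gene, an intensity trend with robust variance, array weights, blocks for replicate number and slide row, and leaving out each array. Cyclic loess and leaving out gene copies were added after seeing the data.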

Additional observations from a re-analysis of the deposited data

How the results depend on the processing

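Of the 143 ribosomal protein probes 0 were called by limma under every alternative run. The median difference was -0.20 with quantile normalization, -0.18 with cyclic loess, -0.57 with the slide row as a block, which rests on ICH 1 alone as the only ICH array in a row with sham, and 0.0335 with centring on the spike-in probes. Spike-in centring gave all probes a median of 0.40, against -0.04 as reported. Relative to the median of all probes the members stood at -0.37 under both scalings. Spike-in centring could not change this value, because it shifts all probes of an array alike. With quantile normalization and cyclic loess, which can change it, the value was -0.20 and -0.19. Higher differences made up 41.2% of all those with an unadjusted p under 0.05 in the reported setting, 29.4% with centring on the median and 96.7% with spike-in centring. Under spike-in centring the large-subunit median was 0.0530 and the small-subunit median 0.0022, and Rpl22 (0.23), Rpl22l1 (0.0335), Rpl3l (0.33), Rpl5 (0.29), Rplp2 (0.0253), Rps4x (0.13) and Rps4y2 (0.0466) turned positive. Rpl5 was also positive with quantile normalization (0.0701) and cyclic loess (0.0865), and Rpl3l with the slide row block (0.14). The cause was not tested.

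Probes of the whole table called were 0 as reported, 3 with normexp, 44 with spike-in centring, 4 with a filter on all 6 arrays, 4 with an intensity trend, 8 with array weights and 2 with cyclic loess. Members with an unadjusted p under 0.05, 74 as reported, all lower in ICH, were 27 with quantile normalization and with cyclic loess, again all lower, 2 with spike-in centring, both higher, and, of 82 genes, 43 with the highest probe and 45 with the mean of probes. Members whose groups did not overlap, 103 as reported and all below sham, were 14 with spike-in centring, 12 above and 2 below sham, and, of 82 genes, 61 and 63 with those gene values. Without the gene copies the median was -0.41.

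Leaving out 1 array gave a median of -0.47 (without ICH 3) to -0.31 (without ICH 1). The groups were then apart for 104 to 131 members. This count could not fall below the reported 103, since leaving out an array cannot make groups overlap that were apart. Over all probes, the share with ICH below sham throughout rose from 16.7% to between 19.0% (without sham 1) and 24.0% (without ICH 2). Between 0 and 31 of all probes were called (8 without ICH 2, 31 without ICH 3). Members with an unadjusted p under 0.05 were 19 to 101: 48 without ICH 1, 101 without ICH 2, 78 without ICH 3, and 19, 34 and 25 without sham 1, 2 and 3. With the replicate number as a block, 35 members had such a p and 0 probes were called. Same-numbered arrays correlated at -0.194, -0.013 and 0.0682 in their deviations, so the numbers were not taken to pair the samples, and not every array correlated best with its own number. Leaving out symbols that match the pattern but name no ribosomal protein could not be run, as no member had one.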
